A study of Homo sapiens with 16 samples.

Results

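The lung-metastatic breast cancer line LM24175 was compared with its parental line MDA-MB-231 when both carried an empty vector. The comparison rests on 4 of the 16 Affymetrix U133 2.0 arrays of the series, chosen by their titles: 2 arrays labelled LM24175_EV and 2 labelled MDAMB231_EV. Each array gave log2 values for 22277 probe sets, read here as 11963 genes. The wider series was designed around RECK, an inhibitor of matrix proteases that is tethered to the cell surface, with arrays labelled for a RECK construct or for siRNA against RECK in 4 breast lines.

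MDA-MB-231 is an established human breast cancer line that lacks estrogen and progesterone receptors and has a mesenchymal form. LM24175, of the LM2 series of sub-lines, was selected from lung metastases that MDA-MB-231 cells formed in mice, so the lines share their origin and differ by selection in the animal and by later culture. Both had been stably infected with an empty vector, the control for a construct that expresses RECK constitutively, and no further agent is named for these arrays. The same lines with the RECK construct, on 2 arrays each, gave the line difference a second time on arrays that the empty-vector comparison does not use. The labels do not say whether an infected line was a pool or 1 clone. They name a repository as the provider of both lines, while the text of the series adds that some lines were gifts. They also leave unsaid whether replicate arrays were grown separately. The p-values therefore describe array-to-array spread that may be purely technical, and with 2 arrays a group the array number limits precision.

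A cell that colonises the lung has to leave the vessel, survive in foreign matrix and meet the local immune cells. Genes known from lung colonisation therefore include secreted matrix proteins, matrix proteases, adhesion molecules that bind leukocytes, and cytokines. NF-kB, a transcription factor family activated by inflammatory signals, drives many of the cytokine and adhesion genes. MHC class II molecules present antigen to helper T cells and are switched on by interferon through a dedicated set of promoter factors.

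Of 10 markers of the MDA-MB-231 type, 9 were well above the lower quartile on all 4 arrays, and SPARC was below it on the MDA-MB-231 arrays. VIM lay between 14.2 and 14.4 on the log2 scale, while the epithelial cadherin CDH1, the leukocyte gene PTPRC, the endothelial cadherin CDH5, the adipocyte hormone ADIPOQ and the club cell gene SCGB1A1 lay below the lower quartile of every array. These are single members of longer lists. In all, 4 of 15 leukocyte, 2 of 9 endothelial, 2 of 9 adipocyte, 2 of 7 lung and 3 of 10 luminal markers lay below it on all 4 arrays. The other members did not, among them PPARG (8.85 to 9.91) and EPCAM (8.45 to 8.96). The first MDA-MB-231 array stood apart from its replicate. Of the genes tested, 1081 differed by over 0.5 between the MDA-MB-231 arrays and 114 between the LM24175 arrays, and the correlation across probe sets was 0.9939 and 0.9981. Counts for the gene lists against the second MDA-MB-231 array alone are therefore given beside those against both. In the arms with the construct, the first LM24175 array deviated along with the first MDA-MB-231 array with vector (r = 0.486 between their gaps to the second array, across 11963 genes, which are not independent replicates).

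RECK itself did not pass between the lines. Its log2 level was 7.74 and 7.78 on the MDA-MB-231 arrays and 7.96 and 8.04 on the LM24175 arrays. The LM24175 values were the higher ones, with a difference of 0.24 (SE 0.16; limma, adjusted p = 0.358). These values come from 1 of 3 RECK probe sets. The other 2 gave differences of -0.03 and -0.06, and neither passed. On the arrays labelled with the RECK construct the first of these probe sets read 7.78 and 7.80 in MDA-MB-231 and 7.39 and 7.76 in LM24175. The values were at the level of the vector arrays in MDA-MB-231 and below them in LM24175, where the 7.39 came from the deviating first array. A rise with construct was thus not seen in this probe set, and construct against vector was not tested within a line. No source used here says whether the probe set lies in the part of the gene that the construct carries. The arms are called by their labels throughout, and no direction below is ascribed to RECK. In the text below, a difference is the log2 value in LM24175 minus that in MDA-MB-231, a gene rose or fell if its limma p, adjusted by Benjamini and Hochberg over all genes tested, was under 0.05, and a level is a deposited log2 value.

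Of 11963 genes, 2489 (20.8%) passed, 1181 higher (9.87%) and 1308 lower (10.9%) in LM24175. In all 2489 the arrays of the lines did not overlap, which held for 6582 genes (55.0%) in all. A lack of overlap stated for a passing gene below therefore adds nothing to its call. Differences of at least 2-fold were found in 414 of the passing genes, 241 higher and 173 lower. Against the second MDA-MB-231 array alone the same size was found in 212 genes higher and 215 lower. Among larger differences against both arrays, 56 genes rose and 29 fell at least 4-fold, and 9 rose and 1 fell at least 16-fold. Against the second MDA-MB-231 array alone 2260 genes passed (18.9%), 1016 higher (8.49%) and 1244 lower (10.4%). The empty-vector count was 1466 without the first and 1430 without the second LM24175 array.

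SPARC, a secreted protein that binds collagen, showed the largest rise. Its level was 4.48 and 4.03 on the MDA-MB-231 arrays and 11.74 and 11.67 on the LM24175 arrays. The LM24175 values were far apart from the parental ones, which lay below the lower quartile of their arrays, so the ratio rests on parental signals that may be background. The difference was 7.45 (SE 0.15; adjusted p = 3.89e-11), a ratio of 175-fold on the deposited scale (95% interval 139 to 220), and the other SPARC probe set rose as well. VCAM1, the adhesion molecule that binds leukocyte integrins, read 3.70 and 4.47 in MDA-MB-231 and 10.81 and 10.79 in LM24175. The groups did not overlap, the parental values were again below the lower quartile, and the difference was 6.71 (SE 0.42; adjusted p = 1.03e-06). IL13RA2, a decoy receptor for interleukin 13, read 7.22 and 6.49 and then 12.85 and 12.86. Here the parental values lay above the quartile, the LM24175 arrays were close to each other, and the ratio was 64-fold (95% interval 49.2 to 83.4; adjusted p = 7.76e-10). VCAM1 and IL13RA2 were each read from 1 probe set.

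The next rises came from varied families. MAGEB2, a cancer-testis antigen, rose by 5.69 from parental levels below the lower quartile. LAMA4, the alpha-4 chain of vessel laminins, went from 4.76 and 4.53 to 9.56 and 9.64. Its parental values lay only just above the lower quartiles of their arrays (4.52 and 4.48), so they too may be background. Its difference was as small as 1.70 under the alternative settings given at the end. PTPRN2, a phosphatase-like protein of secretory granules, rose by 4.85, and CADM1, a cell adhesion molecule, by 4.44. TNFSF4, the OX40 ligand that costimulates T cells, rose by 4.41, and KISS1, a peptide precursor known as a metastasis suppressor, by 4.01. KISS1 levels were 6.37 and 6.45 in MDA-MB-231 and 10.35 and 10.49 in LM24175, so the arrays of the lines were well separated. SPOCK1, a matrix proteoglycan, rose by 3.85, CSTA, an inhibitor of cysteine proteases, by 3.75, LAMP3, a lysosomal membrane protein, by 3.41 and ALOX5AP, the activator of 5-lipoxygenase, by 3.37. The parental arrays of CSTA and LAMP3 lay below the lower quartile, so their differences, like that of MAGEB2, rest on parental signals that may be background. Adjusted p for these 10 genes ran up to 7.67e-04, that of ALOX5AP.

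DMD, the dystrophin gene, showed the largest fall. It read 7.46 and 7.92 in MDA-MB-231 and 3.20 and 3.13 in LM24175. The LM24175 values lay below the lower quartile, and the difference was -4.53 (SE 0.19; adjusted p = 2.94e-08). At its smallest under the alternative settings it was -1.92. The falls of BCHE, a cholinesterase (-3.53), ADGRF5, an adhesion G protein-coupled receptor (-3.23), and TSPAN8, a tetraspanin (-2.74), were also among the largest, and both LM24175 arrays of BCHE lay below the lower quartile. ADGRF5 stayed well measured in both lines, at 11.06 and 11.33 and 7.87 and 8.06. LYPD1, a GPI-anchored protein (-2.57), the meiotic cyclin CCNA1 (-2.55), the cadherin CDH18 (-2.402), the calcium-binding protein CALB2 (-2.36) and the organic anion transporter SLCO4A1 (-2.35) fell as well. Cancer-testis antigens went both ways: of 22 measured, 3 rose and 5 fell (3 and 3 against the second MDA-MB-231 array alone). MAGEB2 and MAGEA6 (difference 3.47) rose, while MAGEA11 (-3.84) and MAGEC1 (-3.44, and -2.78 against the second MDA-MB-231 array alone) fell. The parental arrays of MAGEA6 and the LM24175 arrays of MAGEA11 lay below the lower quartile, so those signals may be background. MAGEA6 is nearly identical to other MAGEA genes, so its probe set cannot assign the signal to 1 of them.

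Genes known from lung metastasis of breast cancer passed in 14 of 23 cases measured, 13 higher and 1 lower, with a median difference of 1.19 against -0.01 over all genes. Much of this list was published from MDA-MB-231 sub-lines of the LM2 series, so its direction here is not independent evidence. Beyond SPARC, VCAM1 and IL13RA2, the gelatinase gene MMP2 went from 5.17 and 5.37 to 8.22 and 8.36, a difference of 3.02 (SE 0.18; adjusted p = 6.33e-07) with no overlap. The inhibitors of differentiation ID3 (2.18, and 2.87 against the second MDA-MB-231 array alone) and ID1 (1.23), the EGF receptor ligand EREG (1.69), ANGPTL4 (1.19), a secreted inhibitor of lipoprotein lipase, and the neutrophil chemokine CXCL1 (0.99) also rose. The remaining rises were ADIRF (1.59), PLAAT4 (1.37), NEDD9, a scaffold of focal adhesions (1.31), and KYNU, an enzyme of tryptophan breakdown (0.33). KYNU lost its call without the second MDA-MB-231 or the second LM24175 array. Against the second MDA-MB-231 array alone, 13 rose and 3 fell, with a median of 0.81.

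MMP1, the interstitial collagenase and a standard member of the lung list, went the other way. It read 13.13 and 13.54 in MDA-MB-231 and 11.75 and 11.77 in LM24175. The LM24175 arrays were the lower ones and did not overlap with the parental arrays, and the difference was -1.58 (SE 0.14; adjusted p = 1.40e-05). PTGS2, which makes prostaglandin precursors, did not pass (1.87; adjusted p = 0.0758). Its MDA-MB-231 arrays read 8.55 and 11.14 and its LM24175 arrays 11.69 and 11.75, so the parental replicates differed from each other by more than the second one differed from LM24175. PTGS2 and LY6E passed without the second MDA-MB-231 array, and PTGS2 also without both deviating arrays. TNC (-0.40), LTBP1 (0.10), FSCN1 (-0.12), LY6E (0.25), MAN1A1 (0.04), ROBO1 (0.12), CEMIP2 (-0.03) and HBEGF (0.08) did not pass. Against the second MDA-MB-231 array alone, TNC (-0.66; adjusted p = 0.0213) and LTBP1 (-0.55; adjusted p = 0.0497) fell, while without that array LTBP1 rose by 0.74.

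**Figure D1:**
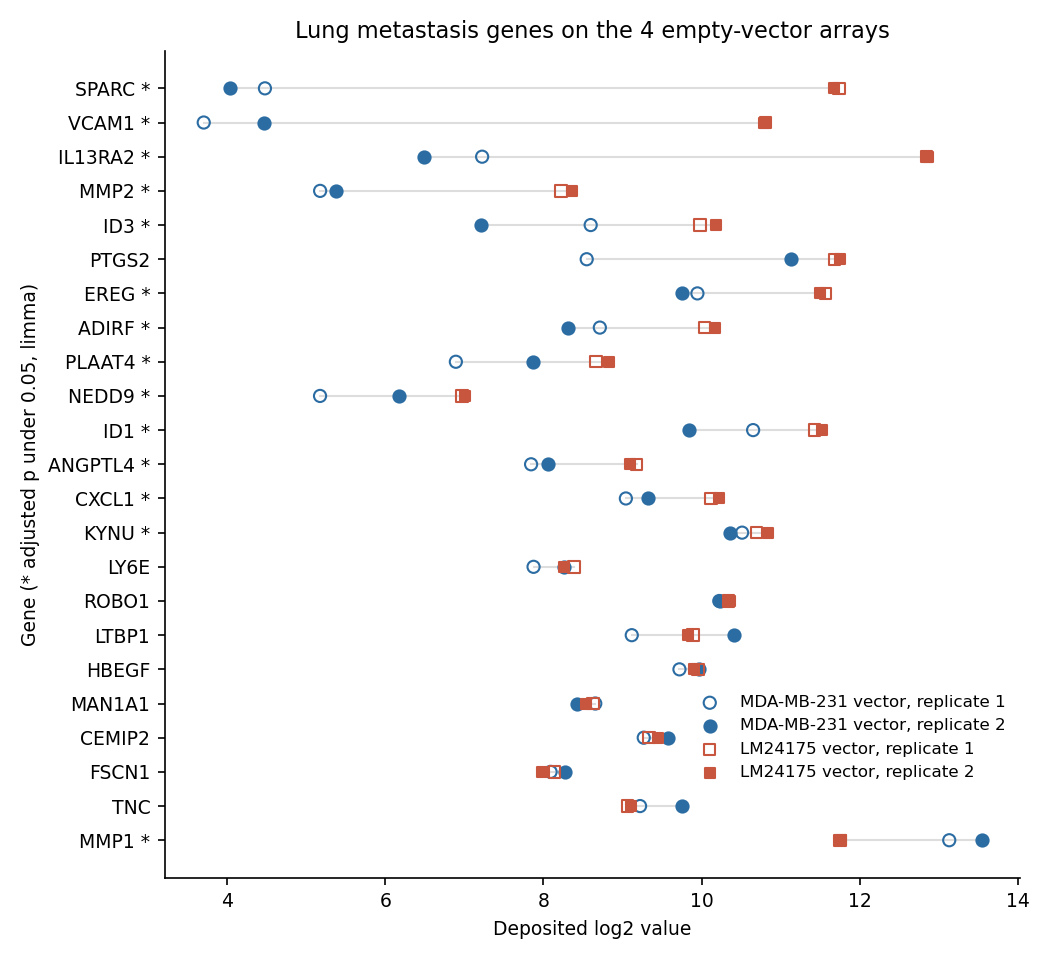
Deposited log2 values (horizontal axis) of the 23 measured lung metastasis genes (vertical axis, ordered by difference) on the 2 MDA-MB-231 and 2 LM24175 empty-vector arrays, 1 point per array, with stars for genes that passed. SPARC, VCAM1 and IL13RA2 show the widest gaps, MMP1 at the bottom is the 1 gene that fell, and the PTGS2 points of MDA-MB-231 lie far apart at 8.55 and 11.14.

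Of 13 measured genes known from bone metastasis, a list also published from sub-lines of MDA-MB-231 and so not independent in direction, 2 rose and 5 fell (1 and 4 against the second MDA-MB-231 array alone). With both arrays 53.8% of the list passed, against 20.8% of all genes. ADAMTS1, a protease that cleaves proteoglycans, went from 10.12 and 9.78 to 6.63 and 6.53, a ratio of 10.4-fold lower (adjusted p = 4.39e-08). SPP1, the bone matrix protein osteopontin (-1.90, and -1.27 against the second MDA-MB-231 array alone), the matricellular protein CCN2 (-0.81) and the chemokine receptor CXCR4 (-0.77) fell too. The CXCR4 call was lost without the second LM24175 array.

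Collagen genes, which build the structural matrix, were higher more often than lower in LM24175. Of 32 collagen chains measured, 11 rose and 0 fell, and the list median was 0.18; 7 rose and 1 fell against the second MDA-MB-231 array alone. The share that passed with both arrays was 34.4%, against 20.8% of all genes. All 3 main chains of the microfibrillar collagen VI were among the 11 that rose. COL6A1 read 8.92 and 9.92 in MDA-MB-231 and 12.49 and 12.49 in LM24175, COL6A2 rose by 3.05 and COL6A3 by 2.23. For COL6A1 the parental arrays lay further apart than the LM24175 arrays, and the groups did not overlap. COL1A1, the alpha-1 chain of collagen I, rose by 3.21, but of its 4 probe sets 2 rose and 2 did not pass, at -0.09 and 0.06. On the first MDA-MB-231 array COL1A1 read 3.87, below the lower quartile. Of 10 fibroblast and stroma markers 2 rose, COL1A1 itself and PDGFRA, with 20.0% passing against 20.8% of all genes. Their summed linear signal was 237 to 266 on the MDA-MB-231 arrays and 460 to 462 on the LM24175 arrays, and without COL1A1 it was 205 to 252 and 256 to 265. COL3A1, PDGFRA, FAP and POSTN, 4 of the 10, lay below the lower quartile on all 4 arrays. COL1A1, COL1A2, DCN, LUM, PDGFRB and THY1 did not. The part of these markers in the result was not tested.

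Of 36 matricellular and basement membrane genes, 9 rose and 4 fell (8 and 9 against the second MDA-MB-231 array alone). The share that passed with both arrays was 36.1%, against 20.8% of all genes. Besides SPARC, the elastic fibre protein FBLN1 rose by 1.96, and CCN3, a CCN family protein, fell by 2.06. Of 27 integrin and laminin chains 3 rose and 1 fell (3 and 5 against the second MDA-MB-231 array alone), against 9.87% higher and 10.9% lower over all genes. The 3 were LAMA4, LAMB1 (0.72) and LAMC1 (0.68). ITGA4, the integrin chain that binds VCAM1, was low on all 4 arrays (3.85 and 3.50 and then 3.29 and 3.18) and fell by 0.44, a call lost against the second MDA-MB-231 array alone and without either LM24175 array. Among 28 matrix proteases and inhibitors, 5 rose and 5 fell (3 and 7 against that array). TIMP3, a matrix-bound inhibitor, rose by 1.43, and the membrane protease MMP14 fell by 0.94. MMP9 (-0.43) and the plasminogen activator PLAU (-0.25) did not pass. Against the second MDA-MB-231 array alone PLAU fell (-0.75; adjusted p = 0.0404). In plasminogen activation 1 of 12 genes rose, SERPINA5 (0.47), and 2 fell, SERPINB8 (-0.79) and SERPINI1 (-0.48), against 1 and 3 with the second MDA-MB-231 array alone. SERPINA5 and SERPINI1 lost their calls without the second MDA-MB-231 or the second LM24175 array, and SERPINA5 also without the first LM24175 array.

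Inflammatory cytokine genes were higher more often than lower in LM24175. Of 31 genes of the IL-1, IL-6 and chemokine families 11 rose and 2 fell, and 9 rose and 3 fell against the second MDA-MB-231 array alone. The share that passed with both arrays was 41.9%, against 20.8% of all genes. The list median was 0.21 with both arrays but 0.01 against the second MDA-MB-231 array alone. IL6 read 6.39 and 7.53 in MDA-MB-231 and 10.62 and 10.72 in LM24175. Both parental arrays were lower, and the difference was 3.71 (SE 0.30; adjusted p = 6.12e-06). CCL20, a chemokine for immature dendritic cells, went from 4.45 and 6.16 to 8.37 and 8.49 (difference 3.13, and 2.27 against the second MDA-MB-231 array alone). The 4.45 of CCL20 lay below the lower quartile of its array. CSF3, the granulocyte growth factor, rose by 2.73. IL1B (1.95), IL1A (1.76), CXCL2 (1.26), CXCL3 (1.16), IL32 (0.83) and the receptor IL1R1 (0.94) rose too. IL24 fell by 2.52, from 10.06 and 10.64 to 7.78 and 7.88. CXCL8 (0.37; adjusted p = 0.445) did not pass, and its MDA-MB-231 arrays read 11.08 and 12.05; it passed without the second of them.

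The promoters of several of these genes are shown because the deposited data have them rising together and each holds the NF-kB consensus. Each line gives the 250 bases before the start site from RefSeq (GRCh38.p14), 5′ to 3′ on the gene's strand, with the match in capitals.
VCAM1: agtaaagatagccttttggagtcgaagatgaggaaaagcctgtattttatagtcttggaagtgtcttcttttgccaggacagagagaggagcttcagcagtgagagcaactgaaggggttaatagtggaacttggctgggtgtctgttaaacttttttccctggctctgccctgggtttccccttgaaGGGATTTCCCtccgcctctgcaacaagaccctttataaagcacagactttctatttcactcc
IL6: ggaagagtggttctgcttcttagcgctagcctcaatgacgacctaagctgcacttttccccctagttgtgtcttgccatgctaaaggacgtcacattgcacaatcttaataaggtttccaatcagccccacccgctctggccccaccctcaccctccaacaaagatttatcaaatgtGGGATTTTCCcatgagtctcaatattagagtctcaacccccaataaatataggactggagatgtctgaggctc
CCL20: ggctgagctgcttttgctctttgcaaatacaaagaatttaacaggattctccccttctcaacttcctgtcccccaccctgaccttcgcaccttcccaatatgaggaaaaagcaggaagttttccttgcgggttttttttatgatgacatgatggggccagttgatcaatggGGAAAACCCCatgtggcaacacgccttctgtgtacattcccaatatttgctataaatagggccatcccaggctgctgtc
CXCL2: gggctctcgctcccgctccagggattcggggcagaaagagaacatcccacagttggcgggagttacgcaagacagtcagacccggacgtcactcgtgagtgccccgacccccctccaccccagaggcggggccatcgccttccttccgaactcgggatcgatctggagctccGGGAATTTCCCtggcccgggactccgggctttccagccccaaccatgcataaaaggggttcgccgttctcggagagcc
They lie at chr1:100719492-100719741 (plus strand), chr7:22726950-22727199 (plus), chr2:227813592-227813841 (plus) and chr4:74099196-74099445 (minus). The match in CXCL2 is a pair of overlapping ones, and in CCL20 it reads on the opposite strand. Of the 11 risen cytokine genes and VCAM1, 10 had a promoter entry, and 7 held the consensus on either strand: IL6, CXCL1, CXCL2, CXCL3, CCL20, IL32 and VCAM1. IL1A, IL1B and IL1R1 did not hold it in this window. The consensus occurs in 5.05% of all 27305 promoters of that length. A match is a description of the letters and not a binding site. List members that did not pass were not counted, here or for the motifs below. The shares therefore cannot tell passing genes from the rest of their families.

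Of 20 NF-kB pathway genes 4 rose and 0 fell (3 and 0 against the second MDA-MB-231 array alone), a share close to the 20.8% of all genes. VCAM1 is 1 of the 4, and the subunit NFKB1 rose by 0.48, the inhibitor of apoptosis BIRC2 by 0.40 and the subunit RELA by 0.29. RELA lost its call against the second MDA-MB-231 array alone and BIRC2 without that array, and both lost it without either LM24175 array. STAT3, the factor named in the question of the series, read 9.92 and 10.12 and 10.13 and 10.27 and did not pass (0.18; adjusted p = 0.215). Of 22 STAT3 genes 2 rose and 1 fell (2 and 3 against the second MDA-MB-231 array alone): CEBPD (0.81), HIF1A (0.34) and SOCS2 (-1.66), a cytokine signalling inhibitor. HIF1A did not pass against the second MDA-MB-231 array alone or without either LM24175 array. In the STAT3 list 13.6% passed, below the 20.8% of all genes.

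MHC class II genes were lower in LM24175. Of 17 genes 8 fell and 1 rose, with a median of -0.56 (10 fell and 1 rose against the second MDA-MB-231 array alone). HLA-DRA, the shared alpha chain, read 11.28 and 11.73 in MDA-MB-231 and 10.06 and 10.15 in LM24175. The arrays did not overlap, and the difference was -1.40 (SE 0.17; adjusted p = 1.39e-04). HLA-DRB1 (-1.70), HLA-DQB1 (-2.02), HLA-DPA1 (-1.33) and HLA-DMB, an editor of the bound peptide (-1.04), fell too. The HLA-DRB4 probe set fell by 3.30, but DRB genes are near copies of each other, so the DRB values are uncertain as to the gene. The protease CTSS, which cuts antigen, rose by 1.23. Of 15 leukocyte markers LYZ fell and 0 rose (6.67% passing, against 20.8% of all genes). Without LAPTM5, which alone held most of their signal, they summed to 399 to 431 in linear signal on the MDA-MB-231 arrays and 397 to 409 on the LM24175 arrays, and the defining gene PTPRC lay below the lower quartile on all 4.

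Of the 7 fallen HLA genes of the class, 5 had a promoter entry, and those of HLA-DRB1 and HLA-DQB1 are shown because both hold CTGATTGG, a Y box motif, in capitals.
HLA-DRB1: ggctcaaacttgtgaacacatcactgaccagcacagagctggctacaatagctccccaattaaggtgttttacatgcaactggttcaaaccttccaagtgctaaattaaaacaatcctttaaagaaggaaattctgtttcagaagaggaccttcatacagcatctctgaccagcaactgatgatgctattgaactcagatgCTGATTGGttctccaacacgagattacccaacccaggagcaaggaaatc
HLA-DQB1: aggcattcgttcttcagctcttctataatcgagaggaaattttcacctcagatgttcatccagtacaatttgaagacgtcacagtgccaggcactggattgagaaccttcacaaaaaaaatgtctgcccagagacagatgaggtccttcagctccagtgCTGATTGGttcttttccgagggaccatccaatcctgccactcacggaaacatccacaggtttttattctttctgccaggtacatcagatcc
They lie at chr6:32589849-32590098 and chr6:32666658-32666907, both on the minus strand (RefSeq, GRCh38.p14). CTGATTGG, searched on both strands, occurred in 2 of the 5 promoters and in 3.98% of all promoters. Its last 5 letters, ATTGG, occurred in 4 of the 5 and in 33.0% of all.

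Of 16 class I genes, PSMB10 rose (0.49) and CALR fell (-0.34), and 0 rose and 3 fell against the second MDA-MB-231 array alone. The share of class I genes that passed, 12.5%, was below the 20.8% of all genes. PSMB10 lost its call against the second MDA-MB-231 array alone and CALR without that array, and both lost it without either LM24175 array. Interferon-stimulated genes were lower more often than higher, 11 against 4 of 38 (12 and 3 against the second MDA-MB-231 array alone). Of the 38 interferon-stimulated genes 39.5% passed with both arrays, against 20.8% of all genes. The RNA sensor RIGI (-1.17), TRIM22 (-1.13) and IFIT2 (-1.06) fell, while the antiviral GTPase MX1 went from 5.58 and 5.89 to 7.56 and 7.59 (1.84; adjusted p = 2.34e-06). TRIM22 and IFIT2 lost their calls without the first LM24175 array, and TRIM22 also without the second MDA-MB-231 array.

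Of 18 TGF-beta and BMP target genes 7 rose and 1 fell (7 and 2 against the second MDA-MB-231 array alone): besides ID1 and ID3, TAGLN (1.80), ID2 (1.64) and TGFBI (1.46) rose. Ligands, receptors and inhibitors were mixed, 6 higher and 9 lower of 41 (5 and 7 against the second MDA-MB-231 array alone). With both arrays 44.4% of the targets and 36.6% of the ligands, receptors and inhibitors passed, against 20.8% of all genes. The median of the targets was 0.12 with both arrays but -0.06 against the second MDA-MB-231 array alone. The ligand TGFB2 rose by 1.33 and the co-receptor TGFBR3 by 1.79, while INHBB, an activin subunit (-2.16), and TGFB1 (-0.73) fell. LTBP3 (1.41) lost its call against the second MDA-MB-231 array alone and without either LM24175 array. Of 26 mesenchymal genes 11 rose and 1 fell (9 and 2 against the second MDA-MB-231 array alone), and the rises included fibronectin, FN1 (1.75), S100A4 (1.33, and 0.72 against that array) and TPM1 (1.04). Of 27 epithelial genes 4 rose and 2 fell (3 and 5 against that array). With both arrays 46.2% of the mesenchymal and 22.2% of the epithelial genes passed, against 20.8% of all genes. KRT7 rose by 2.29 (1.63 against the second MDA-MB-231 array alone) and DSP by 0.95, whereas CLDN4, a tight junction protein (-3.16), and KRT19 (-1.51) fell. Of 10 luminal markers KRT19 fell and 0 rose. Their summed linear signal was 2670 to 2963 on the MDA-MB-231 arrays and 1748 to 1894 on the LM24175 arrays, but without KRT19 it was 970 to 1005 and 1136 to 1222.

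Of 44 angiogenic and vascular guidance genes 8 rose and 5 fell, and 7 rose and 7 fell against the second MDA-MB-231 array alone, where 8.49% of all genes rose and 10.4% fell. PDGFA, a platelet-derived growth factor chain, went from 7.45 and 8.09 to 10.24 and 10.17, and FGF13 rose by 1.505. The semaphorins SEMA4D (-1.52) and SEMA3A (-1.36) fell. VEGFA, the main vascular growth factor, read 11.78 and 12.55 and 12.11 and 12.24 and did not pass (0.01; adjusted p = 0.984). In the lysophospholipid and prostaglandin list 5 of 24 rose and 3 fell (6 and 1 against the second MDA-MB-231 array alone). The share of that list that passed with both arrays was 33.3%, against 20.8% of all genes. ENPP2, which makes lysophosphatidic acid, rose by 1.82 and the lysophosphatidic acid receptor LPAR6 by 1.51, both from parental levels below the lower quartile. PLA2G4A rose by 0.83 and TBXAS1, the thromboxane synthase, fell by 1.18.

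Cholesterol and fatty acid synthesis genes were higher in LM24175 with vector. Of 23 measured 17 rose and 0 fell, with a median of 0.60, and 13 rose against the second MDA-MB-231 array alone. MSMO1, a sterol oxidase, read 10.79 and 10.73 in MDA-MB-231 and 12.03 and 11.93 in LM24175. The replicates of each line lay close together and the difference was 1.22 (SE 0.09; adjusted p = 3.40e-06). INSIG1, the sterol sensor that holds back sterol synthesis, rose by 1.09 and HMGCS1, an early enzyme of the pathway, by 1.02. SCD, which desaturates fatty acids, rose by 0.99 but lost its call against the second MDA-MB-231 array alone and without either LM24175 array. Of the 17 genes 15 had a promoter entry, and 11 held ATTGG, against 33.0% of all promoters. Adipocyte markers moved alongside: 3 of 9 rose, FABP4, PPARG and LPL, and the summed linear signal was 745 to 792 on the MDA-MB-231 arrays and 1291 to 1327 on the LM24175 arrays, with ADIPOQ below the lower quartile on all 4. Of the 9 adipocyte markers 33.3% passed, against 20.8% of all genes. Their part in the result was not tested.

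Amino acid response genes of ATF4 also rose, 11 of 24 with 0 falls, but 5 against the second MDA-MB-231 array alone. NUPR1, a stress-induced chromatin protein, went from 6.47 and 6.61 to 9.35 and 9.38 (2.82; adjusted p = 4.57e-06), and the amino acid transporter SLC7A5 rose by 0.70. DDIT4 (1.12) and DDIT3 (0.80) lost their calls against that array and without either LM24175 array. Of 34 hypoxia and glycolysis genes 13 rose and 5 fell (11 and 7 against the second MDA-MB-231 array alone). With both arrays 52.9% of these 34 passed, against 20.8% of all genes. CA12, a carbonic anhydrase, rose by 1.61, ALDOC by 1.38 and the hypoxia factor EPAS1 by 1.13, while the hexokinase HK2 fell by 1.19. Of 35 mitotic genes 4 rose (8 against the second MDA-MB-231 array alone) and of 43 replication genes 9 (10), with 0 falls in either list, where 9.87% of all genes rose. PRC1 (0.81), CDK1 (0.41), KIF23 (0.48) and CKAP2 (0.55) were the mitotic ones, and CCND2, a G1 cyclin, rose by 1.72. CDK1, KIF23 and CKAP2 lost their calls without the second MDA-MB-231 array or either LM24175 array.

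**Figure D2:**
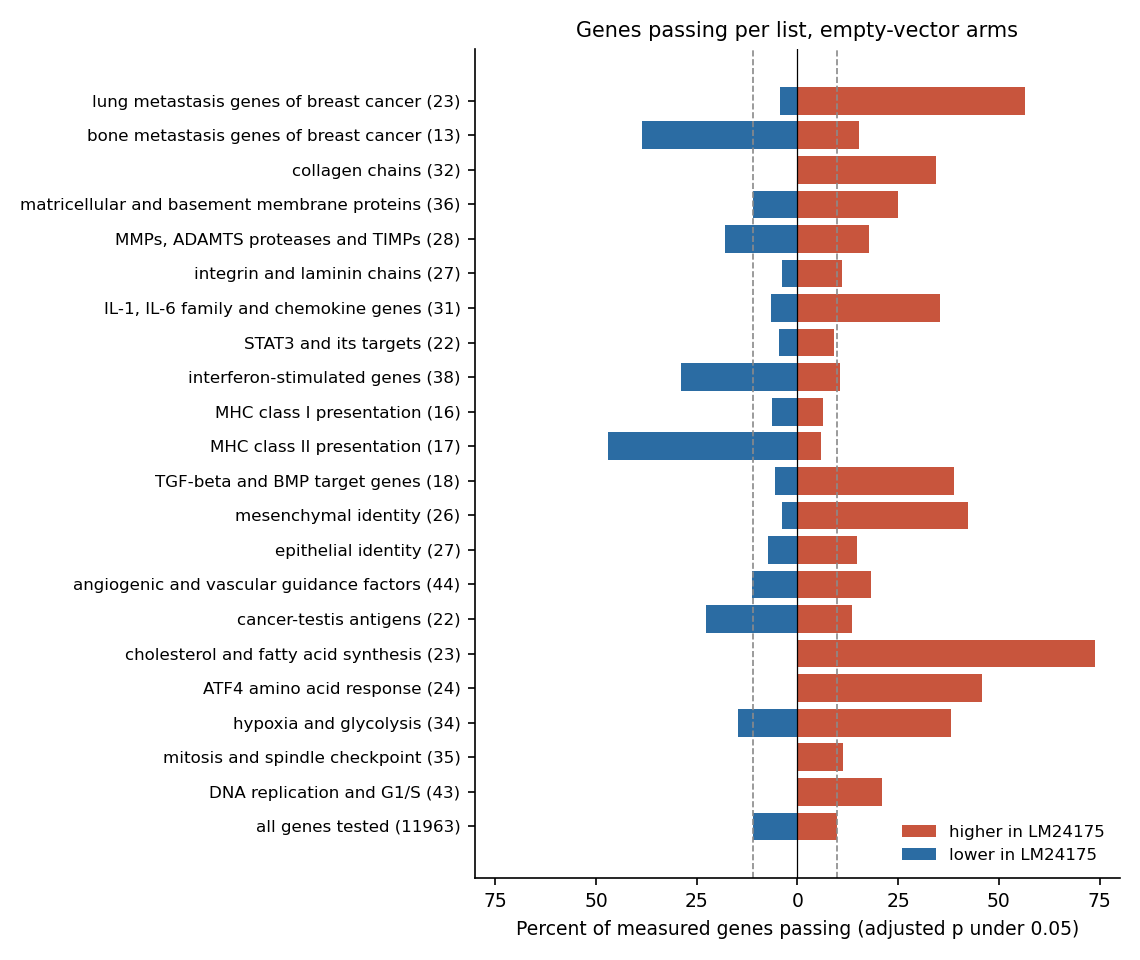
Percent of the measured genes of each list that passed, to the right when higher and to the left when lower in LM24175 (horizontal axis), for 21 lists and all genes tested (vertical axis, number measured in brackets). Dashed lines mark the shares over all genes, 9.87% higher and 10.9% lower. Cholesterol synthesis and lung metastasis genes reach furthest to the right, MHC class II furthest to the left.

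The line difference was then read on the 4 arrays labelled with the RECK construct, on which the RECK probe set read here was not raised. There 2976 genes passed (24.9%), 1288 higher (10.8%) and 1688 lower (14.1%). Median centring of the arrays turned this split to 1544 higher and 1392 lower. Of the 2489 genes that passed with vector, 1409 passed there in the same direction (56.6% of the vector calls and 47.3% of the construct calls), 37 passed in the opposite direction and 1043 did not pass. The line difference with construct was large for the same leading genes: SPARC was 7.46 apart with construct, VCAM1 6.06, IL13RA2 5.75, LAMA4 5.08 and DMD -5.17. Collagen chains passed 12 higher and 1 lower, lung metastasis genes 10 and 2, and MHC class II genes 0 and 10. The medians of these 3 lists were 0.235, 0.16 and -0.80 with construct, against 0.18, 1.19 and -0.56 with vector. The lung metastasis median was thus much smaller with construct, and 0.41 there without both deviating arrays. These arrays carry the same lines, so they repeat the lines and not the selection that made LM24175.

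**Figure D3:**
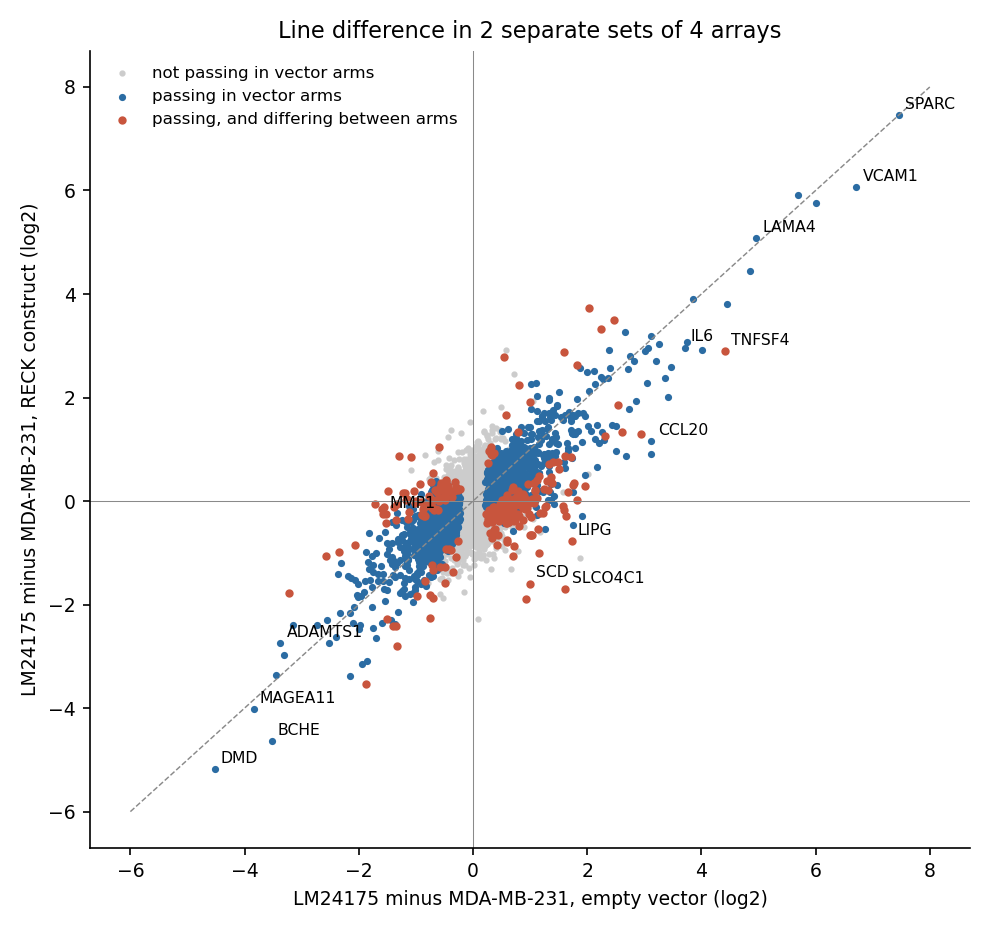
Line difference in log2 units (LM24175 less MDA-MB-231) on the vector arrays (horizontal axis) and the construct arrays (vertical axis), 1 point for each of 11963 genes, from separate sets of 4 arrays. The dashed line marks equal differences. SPARC at upper right reads 7.45 and 7.46, and red points, such as SCD, passed with vector and also in the test between arms.

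The test of whether the line difference itself differs between construct and vector passed for 435 genes (3.64%), 197 with a higher (1.65%) and 238 with a lower (1.99%) difference with construct. Of the 23 cholesterol and fatty acid synthesis genes 14 had a lower difference with construct and 0 a higher one, with a median of -0.84, and 13 and 0 passed without the first MDA-MB-231 vector array. With construct, the line difference passed upward in 2 and downward in 5 of these 23, and upward in 2 and downward in 7 without both deviating arrays. MSMO1 read 11.48 and 11.56 in MDA-MB-231 and 11.16 and 11.41 in LM24175 with construct, a line difference of -0.24 against 1.22 with vector (adjusted p of the change = 6.30e-04). The LM24175 arrays with construct thus lay near or below the parental ones for MSMO1, where those with vector lay above. The genes that passed upward with construct were NSDHL (0.66) and EBP (1.07), both enzymes of late cholesterol synthesis encoded on the X chromosome, and those that passed downward included SCD (-1.60) and the fatty acid synthase FASN (-0.79).

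The widest changes of the line difference, among genes that passed the test of the change, were found in 6 genes. SLCO4C1, an organic anion transporter, read 4.73 and 5.57 in MDA-MB-231 and 6.78 and 6.76 in LM24175 with vector, and 6.73 and 6.69 and 4.23 and 5.78 with construct. Its line difference was 1.62 with vector and -1.71 with construct (adjusted p of the change = 0.00766). SHANK2, a scaffold protein, had line differences of 0.92 and -1.88, SCD of 0.99 and -1.60, and the lipase LIPG of 1.73 and -0.77. SLCO4C1, SHANK2 and SCD lost their vector calls against the second MDA-MB-231 array alone and without either LM24175 array. LOXL1, a crosslinker of elastin, did not pass with vector (0.09) and was -2.28 with construct, while COL1A2, the alpha-2 chain of collagen I, was 0.58 and 2.92. The MDA-MB-231 vector arrays of COL1A2 read 5.07 and 3.81, and against the second alone it also rose with vector (1.21; adjusted p = 4.85e-04). For LOXL1 the MDA-MB-231 vector arrays read 5.81 and 7.26, on either side of the LM24175 vector arrays at 6.68 and 6.57.

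MMP1, at -1.58 with vector, was at -0.25 with construct (adjusted p = 0.243; adjusted p of the change = 0.00617). Cytokine genes passed 5 higher and 8 lower with construct (8 and 7 without both deviating arrays), against 11 and 2 with vector, and in the test of the change 5 were lower and 0 higher (4 and 0 without the first MDA-MB-231 vector array). NF-kB pathway genes passed 2 higher and 4 lower with construct. That excess of falls was not kept without both deviating arrays, where the list median was -0.10 against -0.11 with all arrays. ATF4 genes passed 1 higher and 2 lower with construct, and 7 and 2 without both deviating arrays. Over all genes, the number passing the test of the change was 21 when only the 8 arrays of both lines were fitted. It was 307 without the first MDA-MB-231 vector array, 247 of them shared with the 435, and 423 without both deviating arrays, 228 of them shared. It was 166 without the first MDA-MB-231 construct array, 123 without the first and 139 without the second LM24175 vector array, and 207 without the first and 936 without the second LM24175 construct array. It reached 1411 without the second MDA-MB-231 vector array.

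**Figure D4:**
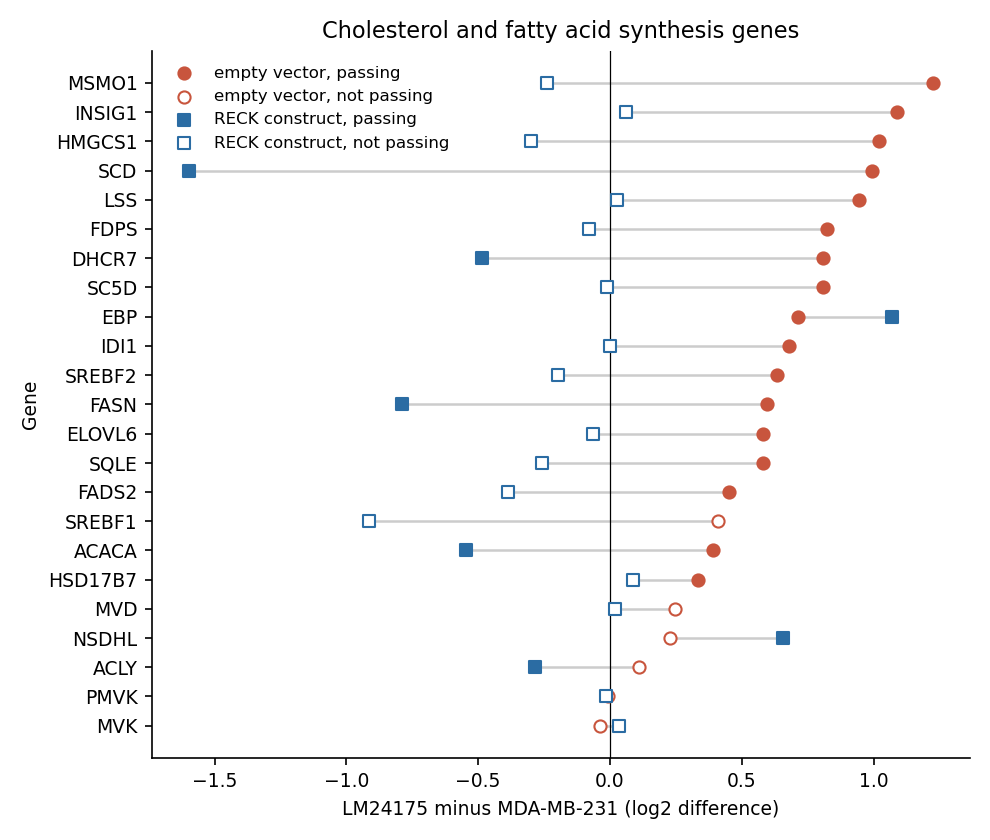
Line difference of each of 23 cholesterol and fatty acid synthesis genes (vertical axis) in log2 units (horizontal axis), with empty vector as circles and with the RECK construct as squares, filled where the gene passed. All filled circles lie to the right of 0, and SCD spans the widest range, from 0.99 to -1.60.

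The genes that differed were not spread evenly over the chromosomes. On chromosome 18, 43.1% of 174 tested genes fell and 2.3% rose, and on chromosome 2, 30.7% of 755 fell and 4.64% rose, against 10.9% and 9.87% over all genes. Falls were also frequent on chromosomes 13 (22.4%), 10 (20.2%), 6 (17.7%) and 20 (17.2%). Rises were frequent on chromosomes 15 (22.5%) and 12 (22.1%). On the arrays with construct 40.8% of genes fell on chromosome 18, 36.6% on chromosome 2, and 17.8% and 19.4% rose on chromosomes 15 and 12.

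Stretches of neighbouring genes were sought, after the values were seen, where the median over 25 neighbouring tested genes lay beyond 0.25 for at least 10 windows. This gave 17 stretches lower (864 genes) and 8 higher (347 genes) in LM24175. In the longest, from POMC to CD207 on chromosome 2, 83 of 159 genes fell and 2 rose, with a median of -0.39, and 93 fell with construct. From ATF7IP to SLC38A4 on chromosome 12, 37 of 77 rose and 0 fell (median 0.42), and from AP3B2 to TM2D3 on chromosome 15, 36 of 69 rose. From TPGS2 to SERPINB5 on chromosome 18, 31 of 59 fell and 3 rose. On the construct arrays, 33 of the 77 on chromosome 12, 26 of the 69 on chromosome 15 and 30 of the 59 on chromosome 18 passed in the same direction.

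**Figure D5:**
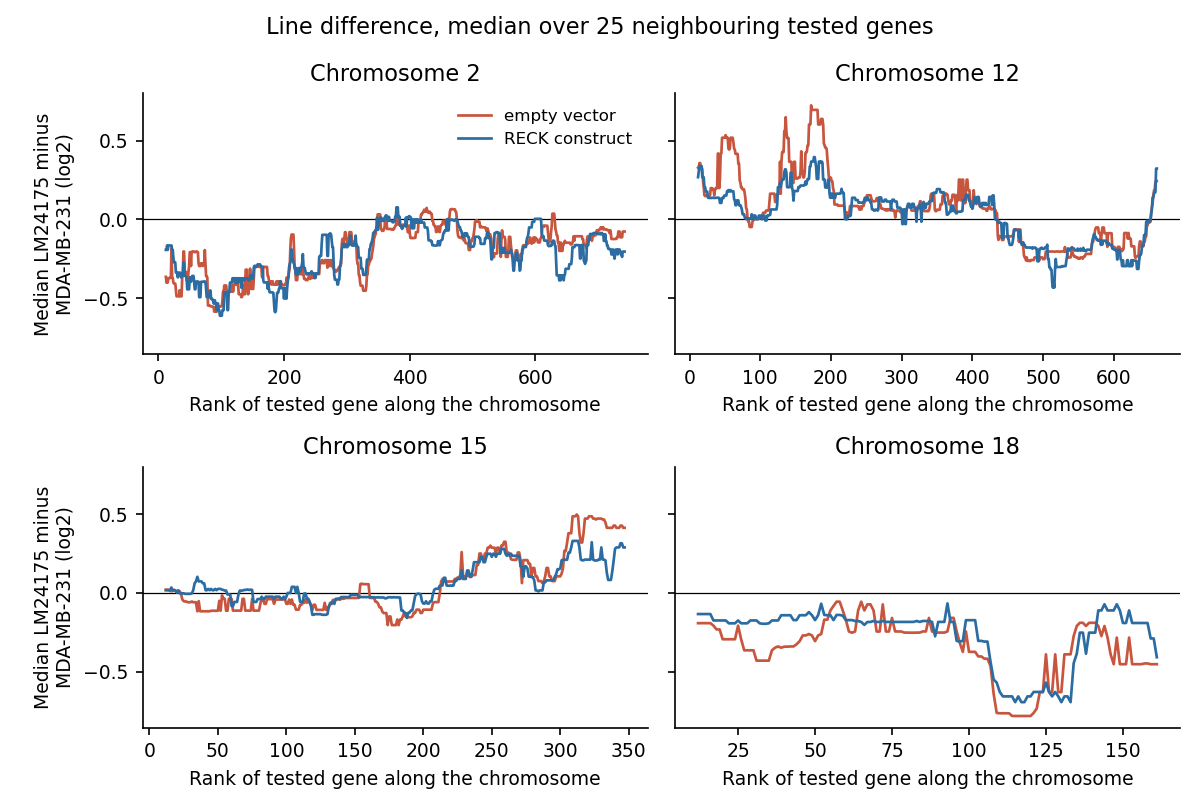
Median line difference over 25 neighbouring tested genes in log2 units (vertical axes) by rank along chromosomes 2, 12, 15 and 18 (horizontal axes), with empty vector in red and RECK construct in blue. The first part of chromosome 2 and the middle of chromosome 18 lie below 0 in both, and the early part of chromosome 12 and the end of chromosome 15 lie above 0.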

How the data were processed

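Total RNA had been extracted from each line and hybridised to Affymetrix U133 2.0 arrays. Deposited values are log2 signals of probe sets, which the authors obtained by loading CEL data into Partek, per the submitters' processing notes. How probes were summarised and scaled is not given in the sources used here, and the base of the logarithm was judged from the range of the numbers (medians of the 4 vector arrays 6.51 to 6.57). No detection calls were used.

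Of 22277 probe sets, 19064 had exactly 1 gene symbol in the platform annotation and were not control probe sets (62), and gave 11963 genes. A further 1043 had several symbols and 2164 were not listed. Each gene was represented by its brightest probe set (mean of 16 arrays), and 460 genes had only cross-hybridising probe sets. limma 3.58.1 (R 4.3.3) estimated the means of 8 groups from all 16 arrays at once, with 8 residual and 3.72 prior degrees of freedom. Tests were 2-sided and adjusted by Benjamini and Hochberg; intervals are 95% intervals of the moderated fit. With 2 arrays against 2, an exact permutation test cannot give a p below 0.333. In the comparison with the second MDA-MB-231 array alone, 15 arrays were fitted and the lone array was taken to vary like the other groups. Promoters came from RefSeq (GRCh38.p14). The software was Python 3.11.15 with numpy 2.4.6, matplotlib 3.10.9 and pandas 2.3.3.

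The text names RECK, all lung metastasis genes, the 15 largest rises and 15 largest falls whose arrays did not overlap and that also passed against the second MDA-MB-231 array alone, per list the 4 strongest genes that passed, or fewer, the 6 largest changes between arms and 7 genes of the series' question; other list members named are given as further examples, chosen after their values were seen. The members and lists were chosen with earlier results of these data known. On simulated data the procedure recovered 58% of 1.5-fold, 90% of 2-fold and 100% of 4-fold changes in the empty-vector comparison of 11963 genes, with 13 false calls. The simulated noise was independent between arrays and equally wide in all groups. The real gap between vector replicates had an SD of 0.312 in MDA-MB-231 and 0.156 in LM24175, and 2 arrays deviated together. Those rates therefore need not hold for these data. Alternatives were quantile normalization, centring, other readings of probe sets, a filter on dim genes, other variance models and array sets, a replicate block, a 1.5-fold minimum and leaving out arrays. Deviations of same-numbered vector arrays of the lines correlated at 0.047, so replicate numbers were not taken to pair these arrays. Between the MDA-MB-231 vector and LM24175 construct arrays the same correlation was 0.486, and its cause was not tested.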

Additional observations from a re-analysis of the deposited data

Results flagged for a closer look

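For 28 genes named above, the difference between the lines was itself different between the arrays with construct and those with vector by limma's interaction test. Values here are the line difference with construct minus that with vector, in log2 units. No explanation was tested. Of the 28, 20 passed without the first MDA-MB-231 vector array, 20 passed without both deviating arrays, and 18 passed in both settings. LYPD1, HLA-DRA, FN1, KRT19, SLC7A5 and LPAR6 passed in neither, ALDOC and ENPP2 only without both, and SLCO4A1 and CCN3 only without the first MDA-MB-231 vector array. Without both, the change was -1.61 for SCD, -2.12 for SLCO4C1, -1.59 for LIPG and -1.41 for LOXL1.

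The change was below 0 for genes of lipid synthesis and lipid handling: SCD -2.59, LIPG -2.50, MSMO1 -1.46, HMGCS1 -1.32 and INSIG1 -1.03. It was below 0 for the transporters and scaffold genes SLCO4C1 (-3.32), SHANK2 (-2.81) and SLC7A5 (-0.90). Matrix and epithelial genes with a change below 0 were LOXL1 (-2.37), FN1 (-1.44) and KRT19 (-0.77). Further genes below 0 were TNFSF4 (-1.52), KYNU (-1.05), CXCL1 (-1.03), HLA-DRA (-1.01), ALDOC (-1.03), LPAR6 (-0.90) and CA12 (-0.74).

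The change was above 0 for COL1A2 (2.34), LYPD1 (1.51), ADGRF5 (1.44), SLCO4A1 (1.37), MMP1 (1.33), ADIRF (1.29), SEMA4D (1.28), CCN3 (1.203), COL6A3 (1.08) and ENPP2 (0.81). COL6A3, ADIRF and ENPP2 were higher in LM24175 in both arms and more so with construct, while LYPD1, ADGRF5, SLCO4A1 and CCN3 were lower in both and less so with construct. MMP1 and SEMA4D were lower with vector and did not pass with construct, and COL1A2 was higher with construct and passed with vector only against the second MDA-MB-231 array alone or without both deviating arrays. SLCO4C1 and SHANK2 lost their vector calls against the second MDA-MB-231 array alone and without either LM24175 array.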

How the results depend on the processing

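Having 2 arrays a group limits all counts, and arrays give no detection calls here. Among the 119 named genes past the threshold, 31 lost their call under at least 1 alternative other than the 1.5-fold minimum, 27 of them when only the 4 arrays were fitted, and 88 lost it under none, of which 87 were also at least 1.5-fold apart. The empty-vector count of 2489 became 1636 with only the 8 arrays of both lines, 1169 with only the 4 arrays and 1144 with a 1.5-fold minimum, and ran from 1430 to 2413 when 1 of its 4 arrays was left out. Against the second MDA-MB-231 array alone, 2260 became 1466 with only the arrays of both lines and 1224 with a 1.5-fold minimum, and it was 1547 and 1448 without either LM24175 array. Those settings, the marker sums without their brightest member and the counts between arms without the deviating arrays were added after seeing the data. The construct-arm count of 2976 became 1695 with only its 4 arrays and 1340 with a 1.5-fold minimum, and ran from 1780 to 2751 with 1 array left out. The test between arms passed for 435 genes, 671 with trend and robust and 21 with only 8 arrays, and from 123 to 1411 with 1 array left out. Centring each array moved its split from 197 higher and 238 lower to 230 and 183, and that of the construct arms from 1288 and 1688 to 1544 and 1392. With replicate number as a block, the counts were 2483, 2961 and 417, and no named gene lost its call. The labels give same-numbered arrays nothing in common but the number. Without the first MDA-MB-231 array, alone or with the first LM24175 construct array, LTBP1 turned to -0.55 and LOXL1 to -0.63; without the second MDA-MB-231 array they were 0.74 and 0.81 and passed. VEGFA was -0.37 without the first MDA-MB-231 array and passed at that value when both deviating arrays were left out. Some leading genes kept their calls under every alternative but with much smaller differences. The smallest were 1.70 for LAMA4, -1.92 for DMD, 0.90 for COL6A1, 0.76 for FBLN1 and -0.92 for HLA-DQB1. No choice among the 4 vector arrays gives differences this small for LAMA4 or DMD at their brightest probe set. The values of LAMA4 and DMD therefore depend on which probe sets of the gene are read, as in the mean of all probe sets. Other causes were not tested.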

Other observations

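Metallothioneins, which bind zinc and copper, were higher in LM24175 with vector in 5 of 9 genes measured and lower in 0 (3 and 0 against the second MDA-MB-231 array alone), with differences of at most 0.45 in MT1F. With vector and both MDA-MB-231 arrays 55.6% of the 9 passed, against 20.8% of all genes. With the RECK construct 0 rose and 1 fell. Death receptor genes went both ways: the TNF receptors TNFRSF1B (1.91) and TNFRSF1A (0.94) and the inflammatory caspase CASP1 (0.81) rose with vector, and FAS (-0.65) fell. EGFR, the receptor of the risen ligand EREG, fell by 0.72 with vector, and its line difference with construct was -1.24. Cadherin and neural adhesion genes fell more often than they rose, 7 against 2 of 29 (5 and 2 against the second MDA-MB-231 array alone), and PCDH7 rose by 1.79.

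On the X chromosome 12.5% of 463 tested genes were higher in LM24175 with vector and 36.1% with the RECK construct, where the median difference was 0.175. The difference between these shares was not tested.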
